A study of Mus musculus with 6 samples.

Results

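RNA recovered on antibody-coated beads from a mouse testis lysate was compared with the total RNA of the same tissue, whichever antibody had been used. The 4 precipitate arrays (MVH 1, MVH 2, IgG 1 and IgG 2) were pooled as 1 side and set against both total RNA arrays (WCE 1 and WCE 2). The genes described are those for which all 4 precipitate arrays lay on the same side of both total RNA arrays. They number 1865 of the 15130 genes with a probe listed on all 6 arrays: 879 genes lay above total RNA in every precipitate (5.81% of genes) and 986 lay below it (6.52%). If the 6 arrays of a gene stood in random order, the expected share on each side would be 0.0667. Neither share of genes exceeds that, so membership alone does not mark a gene as shifted. Over probes, with or without a gene name, the numbers were 1142 above (5.38%) and 1517 below (7.14%) of 21241.

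All 6 samples were testis of C57/BL6 mice. The labels give neither a genotype other than the strain nor an age. For the MVH precipitates, cleared lysate was held overnight with an anti-MVH antibody, then with Protein A beads that were washed repeatedly, and the RNA left on the beads was extracted. The IgG precipitates went through the same steps with normal rabbit IgG, which recognises no testis protein in particular. The total RNA samples had no antibody, and the labels do not say at which point of the preparation they were taken. Nothing in the labels states whether arrays 1 and 2 of a group are separate animals, and p-values therefore measure only how far these samples differ, a spread that may be technical. A passage of the protocol text concerns a different tissue and was set aside.

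MVH, encoded by Ddx4, is an RNA helicase of germ cells and a component of the cytoplasmic granules of spermatocytes and spermatids. An immunoprecipitation from an unfractionated lysate recovers RNA bound to the antibody's target, and also RNA that sticks to beads, to immunoglobulin or to large complexes that come down with them. A precipitate with an unrelated immunoglobulin is the usual measure of that second kind, and total RNA is the usual measure of what the lysate offered. In the testis, many mRNAs are made in meiotic cells and round spermatids, stored outside polysomes and translated later, while mRNAs of ribosomal proteins move between free particles and polysomes as growth signals change.

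The arrays listed 22090 to 22965 of 23473 probes each, with a median intensity of 30 on 5 arrays and of 20.8 on IgG 2. Across probes, which are not independent replicates, replicate arrays correlated at 0.986 (MVH), 0.978 (IgG) and 0.988 (total RNA) in log2 intensity. The MVH arrays correlated more closely with total RNA (0.978 to 0.985) than with the IgG arrays (0.957 to 0.963). Levels below are intensities scaled to an array median of 30. RNA was amplified and every array was centred on its own median, so how much RNA came down is unknown here and a gene that stood lower was lower only relative to the other RNAs on that array. Transcripts of late spermatids were near the top of the scale on every array: Prm1, a protamine, stood at 53209, 74652, 53942 and 78523 in the precipitates (MVH 1, MVH 2, IgG 1 and IgG 2, the order used throughout) and at 67960.0 and 77027 in total RNA.

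The members lay close to total RNA. The 879 genes above had a median log2 difference of 0.69 (range 0.11 to 2.95), and 191 of them exceeded 1. The 986 genes below had a median of -0.48 (range -1.95 to -0.10), and 27 of them lay past -1. The median of all genes was -0.05. Between the nearest arrays of the sides, the median gap was 1.11-fold for the genes above and 1.08-fold for those below, so for most members the sides only just failed to overlap. Without centring, 604 probes lay above and 1854 below, so that the share of members that lay above went from 42.9% to 24.6%. It was 49.1% with quantile normalization. Leaving out the centring lowers every log2 difference by the same amount (-0.132), so it turns the sign of any median between 0 and that size without moving a list relative to all genes. Over genes, 2.99% lay above and 8.11% below with no centring, 6.81% and 6.19% with quantile normalization, and 9.23% and 8.53% without IgG 2. The counts rest on every array: with WCE 1 left out 2959 probes lay above and 3887 below, and with WCE 2 left out 2617 and 4045.

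A gap of at least 2-fold between the nearest arrays was found at 25 genes above total RNA (0.165%) and at 1 gene below it (0.00661%). Over probes it was found at 34 above (0.16%), 9 of them without a gene name, and at 1 below (0.00471%). The linear model of limma, fitted to all probes with the 4 precipitate arrays as 1 group, called 0 probes higher and 0 lower at an adjusted p of 0.05 (0.0% each). Its lowest adjusted p was 0.369, and 490 probes higher (2.31%) and 320 lower (1.51%) had an unadjusted p under 0.05. In that fit any difference between MVH and IgG counts as spread. With MVH, IgG and total RNA as 3 groups and the mean of both precipitates set against total RNA, limma called 23 probes higher (0.108%) and 3 lower (0.0141%), of which 17 had a gene name, all of them higher. In that fit 1169 probes higher (5.5%) and 788 lower (3.71%) had an unadjusted p under 0.05. The sides did not overlap at 24 of the called probes. A call in this fit can come mostly from 1 precipitate. Among called genes picked after their values were seen, Gsn had 0.51 for MVH and 3.84 for IgG against total RNA. Trim25, whose sides overlapped, had 0.24 and 3.13, while Pcm1 had 2.93 and 2.57. With the replicate number as a block in that fit, added after seeing the data, 2 probes higher and 0 lower were called by limma (lowest adjusted p 0.0359), with 1309 and 991 at an unadjusted p under 0.05. With 4 arrays against 2, an exact rank test of a single gene cannot go below p = 0.133, two-sided. The 25 genes became 48 without MVH 1, 48 without WCE 1 and 57 without WCE 2, and 15 with no centring. The named genes below were chosen by this comparison, so their differences are a description.

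**Figure D1:**
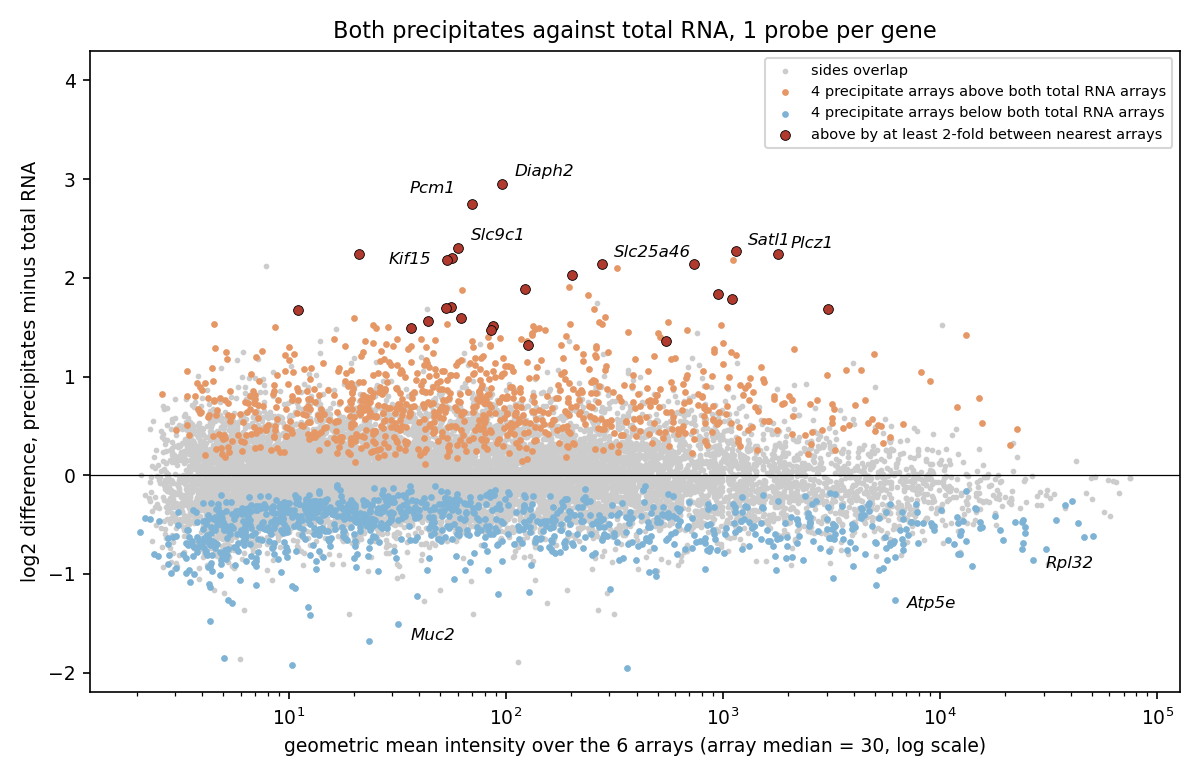
Log2 difference between the mean of the 4 precipitate arrays and the mean of both total RNA arrays (y axis) against mean intensity over the 6 arrays (x axis, log scale, array median 30) for 15130 genes. Orange points are the 879 genes above total RNA on all 4 precipitate arrays, blue points the 986 below, dark red points the 25 genes above by at least 2-fold; the dark red points reach 2.95 and the blue points -1.95.

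The 12 genes with the largest difference among the 25 include several of large cytoskeletal structures. Diaph2, a formin that nucleates actin filaments, stood at 113, 135, 427 and 196 in the precipitates and at 28.4 and 21.1 in total RNA, a difference of 2.95 ± 0.50 (log2, SE, 4 arrays against 2), or 7.71-fold. IgG 1 was the highest array and MVH 1, the lowest precipitate, was still 3.98-fold above total RNA 1. Pcm1, the scaffold protein of centriolar satellites, stood at 100.2, 222, 109 and 123 against 16.7 and 22.9 (2.75 ± 0.37). It had the widest gap of the named genes, 4.38-fold, and 3 of the 4 precipitate arrays were close together, with MVH 2 above them.

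Cep290, a protein of the ciliary transition zone and of centriolar satellites, stood at 82.6, 139, 59.3 and 89.7 against 18.4 and 20.8 (2.18 ± 0.35). Sclt1, a protein of centriole distal appendages, stood at 328, 519, 284 and 219 against 86.4 and 71.7 (2.03 ± 0.36). In both genes MVH 2 was the highest array and the lowest precipitate array was an IgG array. The kinesin gene Kif15, whose product works on spindle microtubules, stood at 76, 145, 97.7 and 71.1 against 18.4 and 22.4 (2.20 ± 0.34).

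Genes of sperm function were among them too. Plcz1, the sperm phospholipase that starts calcium oscillations in the egg, stood at 2342, 5491, 2661 and 2418 against 602 and 676 (2.24 ± 0.38). It was one of the brighter members, and MVH 2 lay far above the other 3 precipitate arrays, which were within a narrow range. Slc9c1, the sperm-specific sodium-proton exchanger, stood at 103, 203, 92.3 and 57.7 against 24 and 18.2 (2.30 ± 0.45). Satl1, which encodes a protein related to spermidine acetyltransferases, stood at 1758, 1871, 1326 and 3210.4 against 448 and 357 (2.27 ± 0.37).

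The other 4 were a mixed set. Zfp654, a zinc finger gene, stood at 1070.0, 1875, 811 and 1319 against 242 and 311 (2.14 ± 0.36). Nemf, a factor of ribosome-associated quality control, stood at 127, 187, 227 and 238 against 46.4 and 56.7 (1.88 ± 0.32). Slc25a46, of the outer mitochondrial membrane, stood at 228, 365, 505 and 1003 against 105 and 99.8 (2.14 ± 0.51), so the IgG arrays were above the MVH arrays while all 4 lay above total RNA. Plagl1, an imprinted zinc finger gene, was dim, at 23.3, 31.2, 26.6 and 79.6 against 9.4 and 5.9 (2.24 ± 0.49). The adjusted p of the 12 genes in the pooled limma fit ran from 0.369 to 0.891. With 3 groups 11 of the 12 passed the threshold (limma adjusted p of 0.0186 for Diaph2 to 0.0387 for Slc25a46), and Plagl1 did not, at 0.106. With the replicate block added to the 3 groups none of the 12 passed (limma adjusted p of 0.0509 for Pcm1 to 0.137 for Plagl1).

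**Figure D2:**
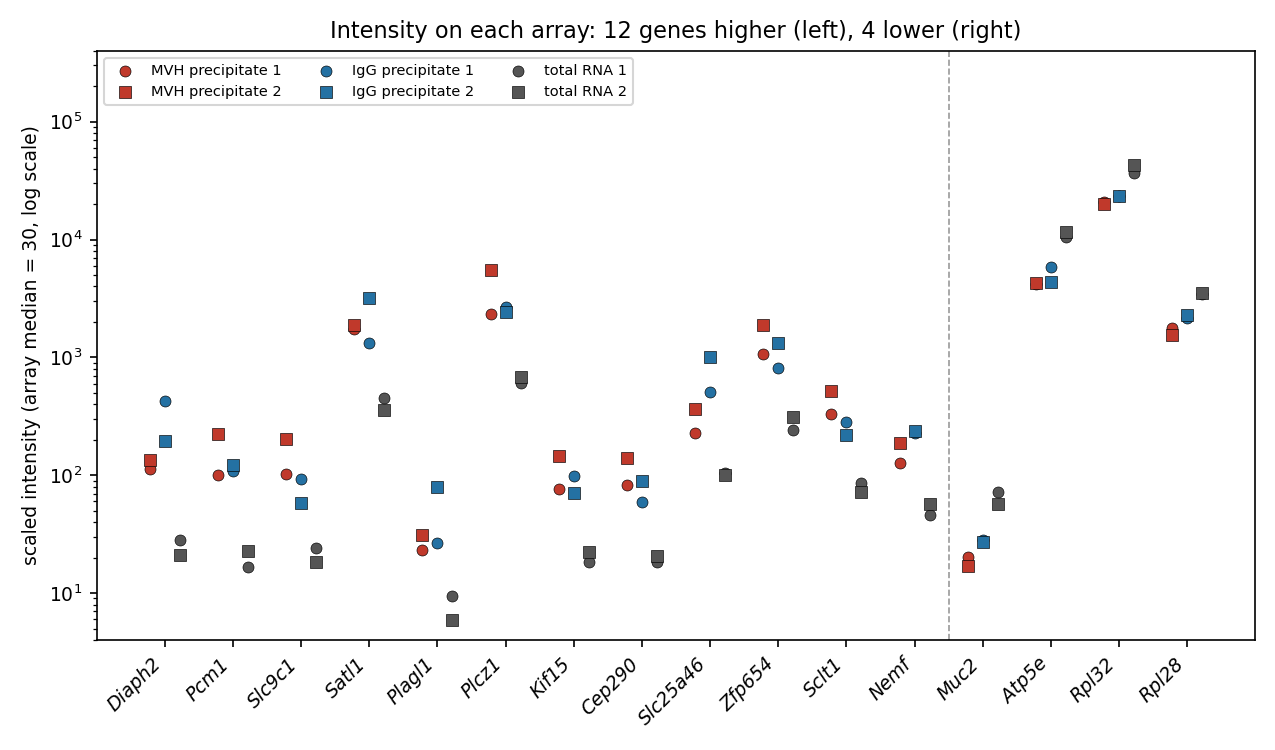
Scaled intensity (y axis, log scale, array median 30) of 12 genes above and 4 genes below total RNA on each of the 6 arrays; each point is 1 array, with circles for replicate 1 and squares for replicate 2. For the 12 genes on the left all 4 precipitate points lie at least 2-fold over both grey points, while for Rpl28 the 4 points lie between 1549.5 and 2285 under grey points at 3476 and 3487.

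Whether the precipitates differed from each other is a question that does not use total RNA. Limma called MVH and IgG different at 2321 probes (10.9%) and 1735 genes (11.5%), at 71 of the 879 genes above (8.08%), at 9 of the 986 below (0.913%) and at 2 of the 25 genes with the 2-fold gap. The rule keeps all 4 precipitate arrays on 1 side, so these smaller shares are partly set by it. The 2 genes were Slc25a46 (MVH minus IgG -1.30, limma adjusted p = 0.0489) and Cfap43, an axoneme gene (-1.02, adjusted p = 0.0476), both higher with IgG. With the replicate block Slc25a46 passed (limma adjusted p = 0.0373) and Cfap43 did not (0.0522). Diaph2 was also higher with IgG, by a difference that did not pass (-1.23, adjusted p = 0.0614). Pcm1 (0.36, adjusted p = 0.592), Satl1 (-0.19, adjusted p = 0.81) and Kif15 (0.33, adjusted p = 0.601) had no called difference in limma, with standard errors of 0.38, 0.39 and 0.35.

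Other genes with a gap of at least 2-fold, named here after their values were seen, were Gpbp1, a transcription factor gene (1.84 ± 0.41), the cohesin subunit gene Stag2 (1.70 ± 0.37), the N-terminal acetyltransferase subunit gene Naa15 (1.59 ± 0.33), Ireb2, an iron-responsive RNA-binding protein gene (1.36 ± 0.36), Slmap (1.32 ± 0.27), 4933409G03Rik (1.68 ± 0.27) and the dim Mllt3 (1.67 ± 0.43). The brightest was 4933409G03Rik, at 3696, 4648.5, 4588.5 and 5102 against 1276 and 1522, with precipitate arrays close together. The largest difference of any probe was at one without a gene name, probe M400000768, at 722, 1718.5, 474 and 1237 against 65.6 and 58.5 (3.90 ± 0.48). At the threshold, Fastkd2 lay just inside with a gap of 2.01-fold and Slk just outside with 1.95-fold.

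Only 1 gene lay below total RNA by the same gap. Muc2, a secreted mucin, stood at 20.1, 16.9, 28 and 27.3 against 72.5 and 56.5 (-1.50 ± 0.31, limma adjusted p = 0.696, and 0.0617 with 3 groups), a gap of 2.02-fold. It was near the array median. The count of such genes was 24 without WCE 1, 16 without WCE 2, 8 without IgG 1 and 2 without MVH 2 or IgG 2, and it was 0 with quantile normalization or an offset of 4 before log2. The next was Atp5e, the epsilon subunit of mitochondrial ATP synthase, with a gap of 1.80-fold. It was bright, at 4210.0, 4295, 5826 and 4328 against 10499 and 11688 (-1.26 ± 0.27), so all 4 precipitate arrays lay well under both total RNA arrays, with IgG 1 above the other 3. Among genes named after their values were seen, Psenen, a gamma-secretase subunit gene, stood at 4956, 3908, 4563 and 4303 against 8179 and 8752 (-0.94 ± 0.25). The lowest difference of any gene with a name was at the histone variant gene H2al1m, at 442, 294, 496 and 43.4 against 772 and 1027 (-1.95 ± 0.86), where IgG 2 lay far under the other precipitate arrays. Lower still were probes without a gene name, M400010807, at 299, 242, 987 and 556 against 1908 and 3079 (-2.44 ± 0.54), and M400015034 (-2.50 ± 1.21), whose sides overlapped because IgG 2 lay above total RNA.

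Genes for ribosomal proteins and for the respiratory chain had the lowest medians of the lists. Of 52 measured genes for cytosolic ribosomal proteins, 47 had a negative difference, 16 lay below total RNA on all 4 precipitate arrays (30.8%, against 6.52% of all genes) and 0 above. The median was -0.41, and in each precipitate array against total RNA it was -0.78 (MVH 1), -0.52 (MVH 2), -0.12 (IgG 1) and -0.30 (IgG 2), so that the MVH arrays lay further below. On the same arrays the medians of all genes were -0.008, 0.003, -0.013 and -0.153. Rpl32 stood at 20932, 20092, 23438 and 23637 against 36683 and 43008 (-0.85 ± 0.25). Rpl28 stood at 1781, 1549.5, 2139 and 2285 against 3476 and 3487 (-0.86 ± 0.27). In Rpl37a (-0.86) and Rps16 (-0.80) the sides were separated by only 1.15-fold and 1.09-fold, and at Rpl37a the MVH arrays, at 2972 and 3505, lay far under the IgG arrays, at 6682 and 6810.3. A second Rpl37a probe overlapped, with a similar difference (-0.85). With no centring 20 of the 52 lay below (38.5%, against 8.11% of all genes), without IgG 2 also 20 (against 8.53%), and with quantile normalization 15 (28.8%, against 6.19%).

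Of 80 nuclear-encoded subunits of the respiratory chain, 64 had a negative difference, 11 lay below and 3 above (13.8% and 3.75%, against 6.52% and 5.81% of all genes). The median was -0.23, with -0.51 and -0.35 on the MVH arrays, 0.18 on IgG 1 and -0.16 on IgG 2, so the sign was not shared by all precipitates. The value on IgG 2 was near the median of all genes on that array (-0.153), so only the MVH arrays were low for this list. Besides Atp5e, the complex I subunit gene Ndufs8 lay below (-0.59 ± 0.30). Ndufb2, of complex I, and Uqcrc1, of complex III, lay above (0.72 ± 0.32 and 0.71 ± 0.33). The 75 mitochondrial ribosomal protein genes had 7 below (9.33%, against 6.52% of all genes) and 0 above, with a median of -0.14 (0.11 on IgG 1). Mrps31 was lowest (-0.86 ± 0.34), then Mrpl48 (-0.84 ± 0.27).

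Other factors of translation lay on both sides. Of 44 initiation factor genes 3 lay above (6.82%) and 5 below (11.4%), against 5.81% and 6.52% of all genes. Their median was 0.04 (-0.09 under the uniform shift of no centring). Eif5b, a GTPase that joins the ribosomal subunits, lay above, at 194, 253, 223 and 201 against 126 and 112 (0.87 ± 0.26). Eif3h, of the eIF3 complex, lay below, at 4261, 4709.6, 5421 and 4998 against 7113 and 7767 (-0.62 ± 0.25). Eif4g1, the scaffold of the cap-binding complex, also lay below, at 7.9, 6, 11.3 and 3.61 against 38.8 and 16.2, but was dim (-1.92 ± 0.49). Of 25 elongation factor and tRNA synthetase genes 2 lay above and 2 below (8% each). The lowest was the elongation factor gene Eef1a1 (-0.75 ± 0.37), separated from total RNA by 1.03-fold.

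**Figure D3:**
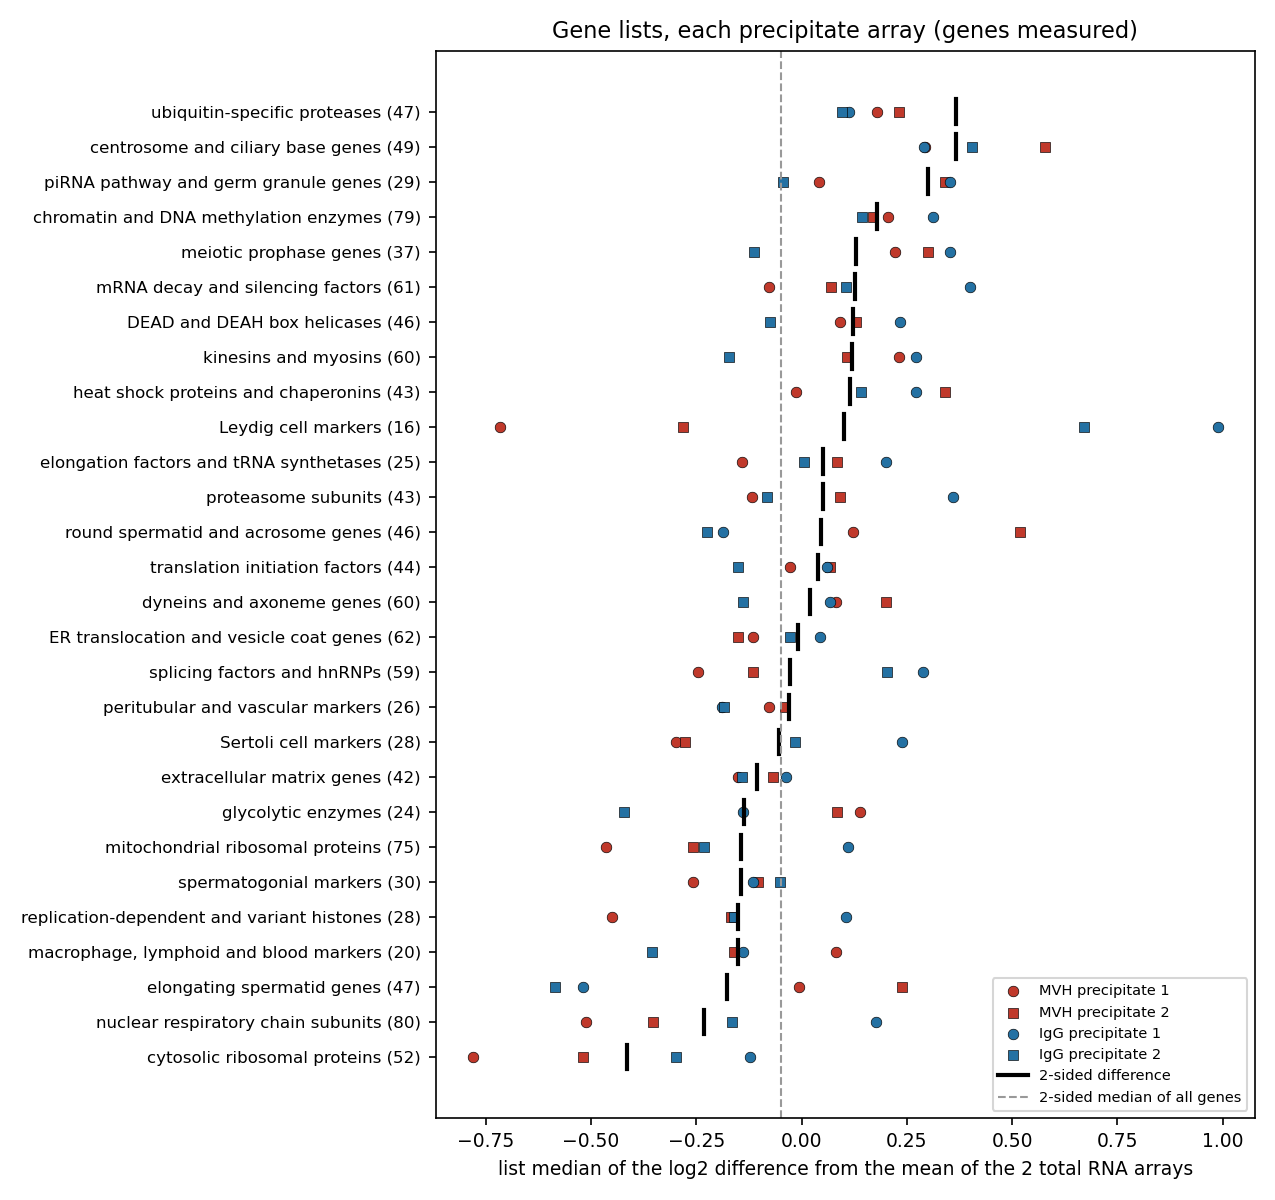
Median log2 difference from the mean of both total RNA arrays (x axis) for 28 gene lists (y axis, with the number of genes measured), separately for MVH precipitates (red) and IgG precipitates (blue), with replicate 1 as circles and 2 as squares. Black bars are the medians of the pooled difference, from 0.37 for ubiquitin-specific proteases to -0.41 for cytosolic ribosomal proteins, and the dashed line is the median of all genes, -0.05.

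Genes of the centrosome and of the base of the cilium were among the highest lists. Of 49 measured, 38 had a positive difference, 12 lay above total RNA on all 4 precipitate arrays (24.5%, against 5.81% of all genes) and 1 below. The median was 0.37, and it was positive on each precipitate array (0.29, 0.58, 0.29 and 0.41). Besides Pcm1 and Cep290, Cep295, which builds centriole microtubules, stood at 57.1, 88.3, 67.5 and 112 against 25 and 23.4 (1.70 ± 0.32). Ofd1, of centriolar satellites, stood at 61.5, 82.1, 129.7 and 127 against 29.3 and 47.4 (1.36 ± 0.38). With no centring 10 of the 49 lay above (20.4%, against 2.99% of all genes), and with quantile normalization 13 (26.5%, against 6.81%).

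Enzymes that modify chromatin or DNA had a similar share. Of 79 measured, 19 lay above (24.1%, against 5.81% of all genes) and 1 below, with a median of 0.18, and the array medians were 0.21, 0.17, 0.31 and 0.14. In the leading members the IgG arrays were the higher ones. Kmt2c, a histone H3 lysine methyltransferase gene, stood at 23, 15.2, 57.4 and 45.1 against 12.4 and 11.6 (1.36 ± 0.50). The demethylase gene Kdm6a (1.06 ± 0.46) and the maintenance DNA methyltransferase gene Dnmt1 (1.03 ± 0.48) also stood higher on both IgG arrays than on both MVH arrays. In all 3, limma called IgG higher than MVH (adjusted p of 0.0178, 0.0186 and 0.015). Chd5, a remodeller of spermatid chromatin, differed little between precipitates (0.96 ± 0.31 against total RNA). Of the 28 genes on the histone list 0 lay above and 1 below (3.57%), the linker histone variant gene Hils1 (-0.69 ± 0.29). The histone variant gene H2al1m, which also lay below (-1.95), was not on that list.

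Motor proteins and the axoneme were counted next. Of 60 kinesin and myosin genes 10 lay above (16.7%, against 5.81% of all genes) and 1 below. Their median was 0.12 (-0.01 under the uniform shift of no centring). Kif18a, a spindle kinesin gene, stood at 108, 211, 107 and 95.3 against 40.8 and 45.6 (1.52 ± 0.36). Kif5b (1.51 ± 0.53) and the smooth muscle myosin gene Myh11 (1.50 ± 0.52) were dim in total RNA and higher with IgG than with MVH. Of 60 dynein and axoneme genes 6 lay above (10.0%, against 5.81% of all genes) and 2 below, with a median of 0.02 (-0.11 under the uniform shift of no centring). With quantile normalization 13 of these 60 lay above (21.7%, against 6.81% of all genes), and without IgG 2 10 did (16.7%, against 9.23%). Cfap43 stood at 997, 1366, 2623 and 2149 against 476 and 488 (1.79 ± 0.40), and Spag17, of the central pair, at 222, 173, 201 and 174 against 90.5 and 52 (1.48 ± 0.30).

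Among ubiquitin-specific proteases, 8 of 47 lay above (17.0%, against 5.81% of all genes) and 1 below. The median of the pooled difference was 0.37, while the medians on single arrays were only 0.18, 0.23, 0.11 and 0.09, so this list's size depends on how it is summarised. Usp16, a histone deubiquitinase gene, stood at 318, 544, 97.8 and 120.0 against 86.3 and 67.9 (1.47 ± 0.64), far higher with MVH than with IgG (1.94, limma adjusted p = 0.00916). Usp24 lay below, at 46.3, 50, 82.2 and 123 against 180.1 and 142 (-1.20 ± 0.42). Of 43 heat shock protein and chaperonin genes 7 lay above (16.3%, against 5.81% of all genes) and 1 below, led by Dnajc2, a ribosome-bound chaperone (1.23 ± 0.36). Their median was 0.11 (-0.02 under the uniform shift of no centring). Of 43 proteasome genes 1 lay above and 1 below (2.33% each), against 5.81% and 6.52% of all genes. For 24 glycolytic enzymes the counts were 2 and 1 (8.33% and 4.17%).

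Decay factors and helicases lay above more often than below. Of 61 genes of mRNA decay and silencing 8 lay above (13.1%) and 0 below, led by the nonsense-mediated decay factor gene Upf2, at 188, 307, 200.0 and 303 against 73.2 and 129.8 (1.32 ± 0.35), the exosome gene Exosc9 (1.19 ± 0.38), the decay kinase gene Smg1 (1.01 ± 0.40) and the exosome gene Dis3 (0.98 ± 0.31). Of 46 DEAD and DEAH box helicases 8 lay above (17.4%) and 0 below, led by Dhx36, which unwinds G-quadruplexes (0.98 ± 0.32). Of all genes, 5.81% lay above and 6.52% below. With quantile normalization 8 of the 61 lay above and 1 below. Of the 46 helicases 9 then lay above (19.6%) and 2 below (4.35%), against 6.81% and 6.19% of all genes. The medians of these lists were 0.13 and 0.12 (both -0.01 under the uniform shift of no centring), and with no centring 5 of the 61 (8.20%) and 3 of the 46 (6.52%) lay above, against 2.99% of all genes. Of 59 splicing factors and hnRNPs 6 lay above (10.2%) and 3 below (5.08%), against 5.81% and 6.52% of all genes. The counts were 3 and 6 with no centring, 4 and 5 with quantile normalization and 6 and 6 without IgG 2. The core spliceosome protein gene Snrpd2 was lowest among those below, at 11924, 11792, 9892 and 11850.0 against 17290.0 and 26516 (-0.92 ± 0.28).

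The antibody's own target transcript was a member by a narrow margin. Ddx4 stood at 1396, 1559, 1468 and 1391 in the precipitates and at 859.6 and 1306 in total RNA (0.45 ± 0.27), with 1.06-fold between the nearest arrays, and MVH and IgG differed by 0.05 (limma adjusted p = 0.944). Of 29 piRNA pathway and germ granule genes 4 lay above (13.8%) and 2 below (6.90%), against 5.81% and 6.52% of all genes. Their median was 0.30. IgG 2 alone gave -0.04, against a median of -0.153 for all genes on that array. Stk31, a Tudor domain kinase gene, stood at 42, 61.6, 62.2 and 44.1 against 19.5 and 17.3 (1.49 ± 0.29). Tdrd5, a Tudor domain protein gene, was also above (1.10 ± 0.53), and higher with IgG than with MVH (-1.62, limma adjusted p = 0.00916). Mael lay below by 1.04-fold, at 23251, 23010.0, 10765 and 13753 against 24254 and 28755, where only the IgG arrays were far from total RNA. Piwil4, a Piwi protein gene, lay below as well (-0.62 ± 0.25).

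Of the other genes fixed by name, the sides overlapped at each. Eif4b, an initiation factor gene, stood at 148, 132, 30.6 and 22.2 against 71.1 and 61, with total RNA between the precipitates. Its pooled difference of -0.13 ± 0.75 was the mean of 1.09 for MVH and -1.34 for IgG. The histone acetyltransferase gene Hat1 (-0.03), the granule nuclease gene Snd1 (-0.08), the actin gene Actb (-0.26, and -0.00 at its second probe), the glycolytic gene Gapdh (-0.42, dim at this probe), Prm1 (-0.18) and the transition protein gene Tnp1 (-0.02) had pooled differences under 0.5 in size. Hat1 was the mean of 0.44 for MVH and -0.50 for IgG, and Gapdh of -0.02 and -0.82, differences between precipitates that limma did not call (adjusted p of 0.127 and 0.214). The signs for Eif4b, Hat1, Snd1 and Tnp1 changed when single arrays were left out.

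**Figure D4:**
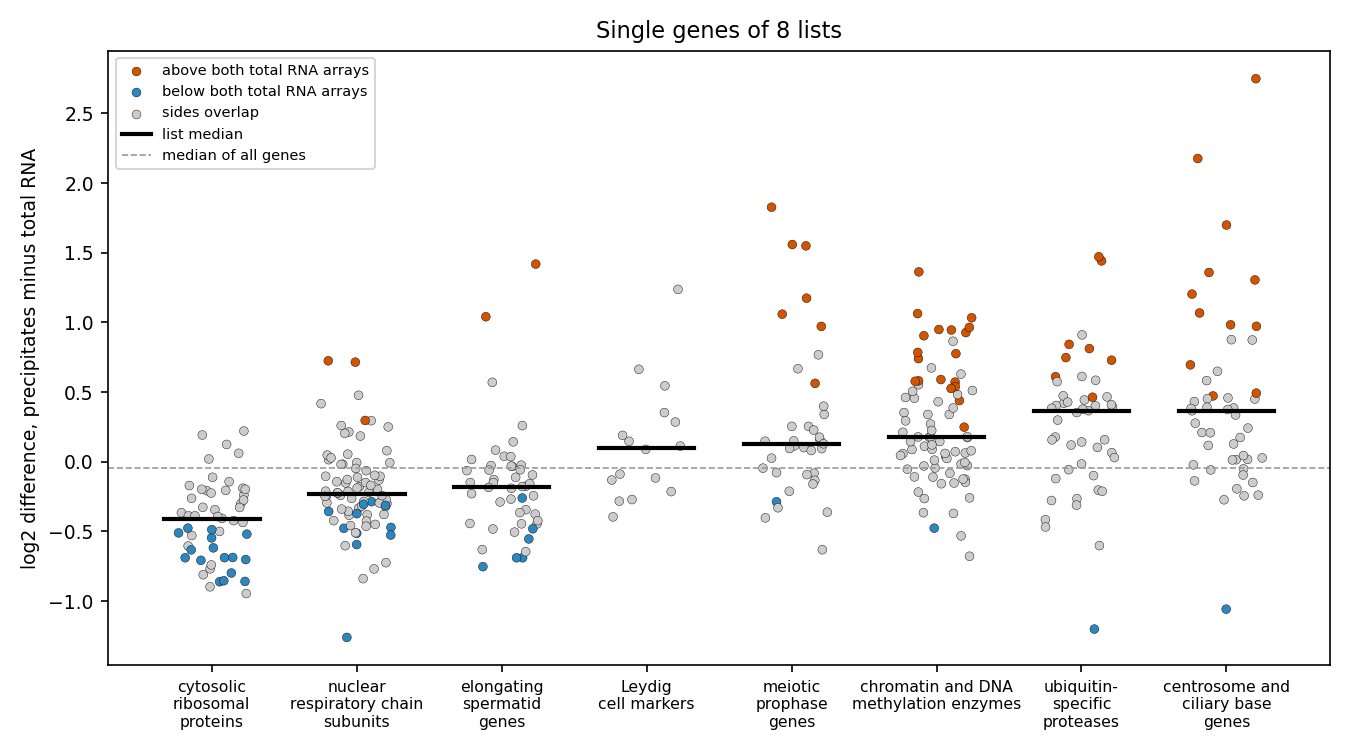
Log2 difference, precipitates minus total RNA (y axis), of every measured gene of 8 lists (x axis), with genes above total RNA on all 4 precipitate arrays in orange, genes below in blue and genes whose sides overlap in grey. Bars are list medians, from -0.41 for cytosolic ribosomal proteins to 0.37 for the centrosome list, and no Leydig cell marker is coloured.

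Germ cell genes were listed by stage. Meiotic prophase genes had 7 of 37 above (18.9%) and 1 below (2.70%), against 5.81% and 6.52% of all genes. Tex15, needed for meiotic recombination, stood at 203, 267, 529 and 611 against 92.6 and 113 (1.83 ± 0.46), and Meioc, which keeps spermatocytes in meiosis, at 54.3, 76.2, 44.8 and 83.7 against 20.8 and 21.8 (1.56 ± 0.32). The meiotic cohesin gene Smc1b (1.55 ± 0.42) was higher with IgG than with MVH, as was Tex15 (limma adjusted p of 0.0497 and 0.0214). The median of the list was 0.13 (-0.00 under the uniform shift of no centring), and with no centring the count above was still 7 of 37 (against 2.99% of all genes). Of 30 spermatogonial markers 0 lay above and 1 below (3.33%), against 5.81% and 6.52% of all genes. With so few markers these counts say little.

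The medians of the spermatid lists were lower on both IgG arrays than on both MVH arrays. Of all genes, 5.81% lay above and 6.52% below, with a median of -0.153 on IgG 2. Of 46 round spermatid and acrosome genes 5 lay above (10.9%) and 2 below (4.35%), with array medians against total RNA of 0.12, 0.52, -0.19 and -0.23. Of 47 elongating spermatid genes 2 lay above (4.26%) and 6 below (12.8%), with array medians of -0.01, 0.24, -0.52 and -0.59. With quantile normalization 4 lay above and 4 below (8.51% each, against 6.81% and 6.19% of all genes). Crisp2, a cysteine-rich sperm protein gene, lay above at 16151, 38542, 12909 and 13574 against 7008 and 6593 (1.42 ± 0.44). Hook1, a manchette protein gene, also lay above (1.04 ± 0.30). Odf3, of the outer dense fibres, lay below by 1.02-fold, at 4915, 4588, 2087 and 2029.9 against 4997 and 5558.

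Somatic cell markers were checked in the same way, because the samples were of whole testis. A marker's level can follow the cells in a sample, the RNA per cell or the RNA recovered on beads. These cannot be told apart here. Of 16 Leydig cell markers 0 lay above and 0 below. Their median was -0.43 for MVH and 0.72 for IgG against total RNA, so the precipitates lay on opposite sides, and their summed level was 2747 to 3486 (MVH), 5992 to 7961.5 (IgG) and 3119 to 4256 (total RNA). Of 28 Sertoli cell markers 1 lay above (3.57%, against 5.81% of all genes) and 0 below, with summed levels of 24421 to 29559, 52441 to 53009 and 32965 to 43338. Peritubular and vascular markers gave 2 above and 2 below of 26 (7.69% each), with summed levels of 10575 to 12822, 6737 to 9958 and 10479 to 13790.0. Macrophage and blood markers gave 1 and 2 of 20 (5% and 10%), with 1480.2 to 1582, 1178 to 1196 and 1711 to 1885. No somatic list thus lay on 1 side of total RNA in both precipitates by its summed level, apart from the macrophage and blood list, which was lower in both. The complement gene C1qb, a macrophage marker, lay below, at 439, 455, 274 and 422 against 644 and 907 (-0.97 ± 0.31). The part of these markers in the other results was not tested. Of 42 extracellular matrix genes 0 lay above and 4 below (9.52%, against 6.52% of all genes). For 62 genes of ER translocation and vesicle coats the counts were 4 and 5 (6.45% and 8.06%), and for 6 long noncoding and snoRNA host RNAs 0 and 0. Limma called 0 genes of any list in the pooled fit.

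A property that the rule did not use was the genomic span of the gene, introns included, which is not the length of its mRNA. The median span was 39.0 kb for the genes above, 13.6 kb for those below and 20.9 kb for all genes, and 64.4 kb for the 25 genes with the 2-fold gap. In 5 groups of 3014 genes ordered by span, the share above total RNA was 2.09%, 3.82%, 5.77%, 7.93% and 9.46% from the shortest to the longest. The share below was 9.65%, 7.43%, 6.17%, 4.31% and 5.04%. The 25 genes fell 0, 0, 3, 10 and 12 to the 5 groups. Among the brightest of 4 groups of genes by mean intensity, the share above went from 1.81% at the shortest spans to 15.9% at the longest, and the share below from 13.5% to 5.24%. Among the dimmest, the share above showed no such course (3.01%, 3.35%, 4.32%, 2.56% and 3.64%). The lists differed in span too. The median was 54.1 kb for the centrosome list, 52.3 kb for chromatin enzymes, 52.1 kb for ubiquitin-specific proteases and 62.2 kb for kinesins and myosins. It was 3.21 kb for cytosolic ribosomal proteins and 7.08 kb for the respiratory chain. Extracellular matrix genes, with 0 above and 4 below, had 53.95 kb. List shares were set against all genes, not genes of like span, and the part of span in them was not tested.

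The shift with span was small and was not limited to the comparison with total RNA. The median log2 difference of the longest group minus that of the shortest was 0.14 for the pooled comparison. By array it was 0.17 for MVH 1, 0.24 for MVH 2, 0.03 for IgG 1 and 0.08 for IgG 2. Between the arrays of 1 group it was 0.10 for MVH 2 minus MVH 1, 0.10 for IgG 2 minus IgG 1 and -0.02 for WCE 2 minus WCE 1. The difference between replicates of a precipitate was thus larger than the value of either IgG array. What the shift follows was not tested.

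**Figure D5:**
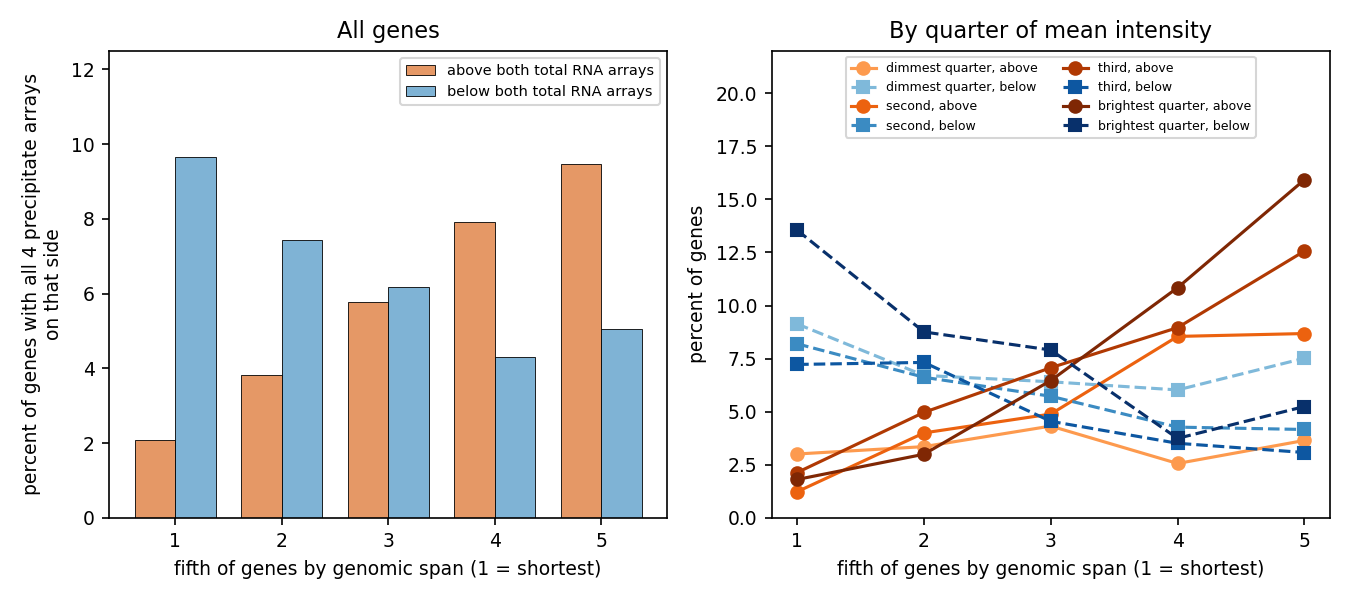
Share of genes with all 4 precipitate arrays above (orange, solid) or below (blue, dashed) both total RNA arrays, in percent (y axis), in 5 groups of genes by genomic span from shortest to longest (x axis), for all genes (left) and in 4 groups by mean intensity (right). Over all genes the share above goes from 2.09% to 9.46% and the share below from 9.65% to 5.04%.

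Because ribosomal protein genes had the lowest median of the lists, their annotated starts were compared with those of genes above. Such mRNAs typically begin with a C followed by a run of C and T, the 5′ terminal oligopyrimidine tract through which growth signals control their translation. The windows, from the RefSeq annotation of GRCm38.p6, hold 10 bases before the annotated start and 20 from it on, with a tract of a C and at least 4 further C or T at the start in capitals. Rpl28 (chr7:4792955-4792984, plus strand) and Rpl38 (chr11:114668570-114668599, plus strand) are shown as ribosomal protein genes below that hold the tract, which most genes below do not, and Cep290 (chr10:100487572-100487601, plus strand) and Kif15 (chr9:122951071-122951100, plus strand) as genes above without it.
Rpl28: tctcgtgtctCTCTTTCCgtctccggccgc
Rpl38: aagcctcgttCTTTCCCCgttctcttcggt
Cep290: ggggggcggggagtggtgtcgcctagcagc
Kif15: gcggccatcttgaagggaggattctggtgg

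A start window was matched for 12149 of the 15130 genes. The tract was present in 12 of 42 matched ribosomal protein genes (28.6%), in 346 of all matched genes (2.85%) and in 823 of the 32851 windows of the whole table (2.51%). Among the ribosomal protein genes, 5 of the 12 with the tract lay below total RNA, as did 8 of the 30 without it, with median log2 differences of -0.62 and -0.39. Rpl38, a gene with the tract that was named after its values were seen, stood at 66.2, 74.2, 73.2 and 57.5 against 97.3 and 124.7 (-0.71 ± 0.27). Over all members the tract was present in 14 of 709 matched genes above (1.97%) and in 25 of 791 below (3.16%), both near the share of all matched genes. GC content was taken over a longer sequence around each annotated start, of which the windows described above are only a part. Its median was 61.0% for genes above, against 56.3% for genes below and 58.7% for all genes. A tract found here is a match of letters at an annotated start, which may differ from the start used in testis.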

How the data were processed

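Per the labels' protocols, amplified aminoallyl RNA was coupled to Cy5 and each sample had an array of its own. The authors deposited 1 linear intensity per probe and array. Scanner, background correction and scaling were not given in the sources used here. Probe symbols came from the platform annotation (16631 of 23473 probes) and were updated through RefSeq synonyms of GRCm38.p6 (12622 current, 3947 updated, 62 unmatched). Gene spans and start windows came from the same annotation.

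After log2, the median of an array's listed values was subtracted from that array. The 21241 probes listed on all 6 arrays were fitted with limma 3.58.1 in R 4.3.3 (lmFit, eBayes), the 4 precipitate arrays as 1 group against 2 total RNA arrays, with 4 residual degrees of freedom and a prior of 5.03. The median standard error was 0.323. The contrast of MVH with IgG came from a 3-group fit (3 residual degrees of freedom, prior 7.6). P-values were adjusted by Benjamini-Hochberg over all probes, with a threshold of 0.05. A gene was represented by the probe with the highest mean, which gave 15130 genes. The number of arrays limits the precision. The steps were tested on simulated data.

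Named are the 12 genes that differ most in each direction among those with a descriptive symbol, a gap of at least 2-fold between the nearest arrays and a mean of at least 30 on the higher side. By this rule there was 1 lower gene. Also named are up to 4 members of each of 29 gene lists by size among those whose sides did not overlap, 8 genes fixed by name and the genes next to the 2-fold gap. Other named genes are said to be chosen after their values were seen. The members and lists were chosen with earlier results of these data known. Alternatives were quantile normalization, no centring, an offset of 4, subtraction of the 75th percentile in place of the median, 1 probe per gene, removal of the dimmest 25% of probes, 3 groups, a replicate block in both designs, a variance trend with robust prior, probes blank on 1 precipitate array, and each array left out. Plots were drawn with matplotlib 3.10.9.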

Additional observations from a re-analysis of the deposited data

Results flagged for a closer look

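In 3 of the genes that lead the comparison, were fixed by name or lay next to the 2-fold gap, 1 of the 4 precipitate arrays stood apart from the other 3. The gap took up most of the range of their log2 values. For Plcz1 it was MVH 2, at 5491 (0.85 of the range). For Snd1 it was also MVH 2, which was lowest at 89.6 (0.924 of the range, within a narrow range). For Atp5e it was IgG 1, at 5826 (0.915 of the range). Chance alone flags about 1 in 20 groups of samples, so some flags are to be expected. The count leaves out the other named genes, some of which also had 1 array apart. Among them, Ireb2 stood at 637, 1301, 619.5 and 622 and Stag2 at 68, 142.8, 69.1 and 70.1.

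The precipitates differed from each other at 2 of the genes that lead the comparison or were fixed by name, by the limma contrast of MVH with IgG. Slc25a46 was lower with MVH (-1.30) and Eif4b was higher with MVH (2.42).

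Some probes fall outside the comparison because they were blank on part of the arrays. On all 4 precipitate arrays a value was listed, with both total RNA arrays blank, for 34 probes (21 with a gene name). The opposite pattern was found for 13 probes (7 with a gene name). The medians of the listed values were 2.4 and 2.45 as deposited, near the lowest intensities listed on an array (1.3 to 2). Some were brighter. Among those chosen after their values were seen, Arhgap12 was listed at 6.7, 13.1, 5.2 and 6.6 and Arap2 at 7.9, 11.2, 3.1 and 7 on the precipitate arrays.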

How the results depend on the processing

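With the 3-group design limma called 23 probes higher and 3 lower, and with no centring 1 higher. In the other alternatives without the 3 groups, each array left out in turn included, it called 0 probes. The probes above total RNA on all 4 precipitate arrays numbered 604 with no centring, 34 with a gap of at least 2-fold, and 1504 to 2959 with single arrays left out (above 1.5 times the main count without IgG 2, MVH 1, WCE 1 or WCE 2). Those below numbered 986 with 1 probe per gene, 1 with the 2-fold gap, and 1946 to 4045 with single arrays left out (above 1.5 times without any but IgG 2); fewer arrays make the rule easier to meet. The genes above by at least 2-fold numbered 15 with no centring and 27 to 57 with single arrays left out, always with all 25 among them (above 1.5 times without MVH 1, WCE 1 or WCE 2; alternatives chosen after seeing the data, like those for gene span and for counts within lists). The shift with gene span stayed between 0.0933 and 0.165 with single arrays left out. Of 1575 values for 113 named genes, 1553 kept direction and side of the threshold, 13 passed it under the 3-group design and 9 changed sign. These 9 all came from leaving out single arrays, which gave ranges of -0.56 to 0.36 for Eif4b, -0.38 to 0.18 for Hat1, -0.28 to 0.12 for Snd1 and -0.17 to 0.0725 for Tnp1; the cause was not tested. Of 348 medians for 29 lists, 326 moved by less than the SD over the precipitate arrays; 8 of the 22 others were with no centring, which took the median of all probes from -0.06 to -0.20. The labels do not say what the array numbers mark; same-numbered arrays deviated together weakly (r = 0.157 for MVH and IgG, 0.156 for MVH and WCE, 0.101 for IgG and WCE). With the replicate block limma called 0 probes higher and 0 lower, and 446 and 287 had an unadjusted p under 0.05. With the block in the 3-group design, added after seeing the data, it called 2 higher and 0 lower, and the probes that differ between MVH and IgG went from 2321 to 2529.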
